A study of Arabidopsis thaliana with 144 samples.

Results

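Genes of leaf senescence and chlorophyll breakdown were followed in RNA-seq counts of Arabidopsis thaliana seedlings. They were taken by their locus identifiers, as 9 of the 27206 genes in the deposited table. They are the chlorophyll enzyme genes NYC1 (AT4G13250), SGR1 (AT4G22920), PPH (AT5G13800) and PAO (AT3G44880), the NAC transcription factor genes ORE1 (AT5G39610) and NAP (AT1G69490), and the senescence markers SEN1 (AT4G35770), SAG13 (AT2G29350) and SAG12 (AT5G45890).

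The study asked how the supply of phosphate (Pi) and a synthetic community of bacteria (SynCom) act together on the seedling transcriptome. Seedlings were of the wild type Col-0, of the mutant phf1, or of the double mutant phr1phl1, and RNA came from seedlings as a whole, shoots and roots together. PHF1 is needed for PHT1 phosphate transporters to exit the endoplasmic reticulum, while PHR1 and PHL1 are MYB-type transcription factors of the Pi starvation response. For 7 days the seedlings grew with sucrose. Their medium held 5 µM Pi in the -P pre-treatment, 1 mM Pi in +P, and in +Phi 1 mM of phosphite, which enters plants as Pi does but is no nutrient. For the next 12 days they grew without sucrose, without bacteria or with SynCom, in short days. Low Pi stands here for 50 µM in those days and high Pi for 625 µM. All groups, controls included, shared the sucrose before the transfer, its removal afterwards and the short days. The 36 groups had 4 libraries each, A1 and A2 from experiment A and B1 and B2 from experiment B. The labels call the 4 libraries biological replicates, but do not say whether seedlings were pooled in a library or whether A1 and A2 came from separate plates.

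Chlorophyll is taken apart in the plastid in a fixed order. NYC1 is a chlorophyll b reductase that starts the conversion of chlorophyll b to chlorophyll a, SGR1 removes the magnesium from chlorophyll a, PPH cuts the phytol tail from the product, and PAO opens the ring. ORE1 and NAP are transcription factors that promote senescence in ageing leaves, and SEN1, SAG13 and SAG12 are transcripts by which senescence is recognised. SEN1 also rises in darkness, SAG13 rises early in senescence and in several stresses, and SAG12, a cysteine protease gene, is a late marker tied to leaf age.

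PAO and PPH, like SEN1, ORE1 and NAP, were called below in a comparison of phr1phl1 with Col-0, but their upstream sequences are not shown. Upstream sequences are shown for SEN1, ORE1 and NAP, to show where motifs of known factors lie near their starts. Each is the 250 bases before the annotated start in the RefSeq annotation of TAIR10.1, 5′ to 3′ on the strand of the gene, with capitals for a P1BS motif (letters GNATATNC, the motif that PHR1 binds) or a G-box (CACGTG).
SEN1, chr4:16944628-16944877, plus strand: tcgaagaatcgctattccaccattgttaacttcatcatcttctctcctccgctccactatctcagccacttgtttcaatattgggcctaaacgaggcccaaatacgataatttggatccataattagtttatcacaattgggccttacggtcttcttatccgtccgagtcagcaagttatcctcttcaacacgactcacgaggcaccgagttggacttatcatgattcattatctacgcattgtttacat
ORE1, chr5:15859912-15860161, minus strand: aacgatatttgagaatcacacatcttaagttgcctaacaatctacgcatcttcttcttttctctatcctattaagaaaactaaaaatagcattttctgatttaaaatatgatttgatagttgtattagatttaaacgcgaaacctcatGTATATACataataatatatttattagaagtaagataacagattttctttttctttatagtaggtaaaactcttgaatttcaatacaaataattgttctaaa
NAP, chr1:26121830-26122079, plus strand: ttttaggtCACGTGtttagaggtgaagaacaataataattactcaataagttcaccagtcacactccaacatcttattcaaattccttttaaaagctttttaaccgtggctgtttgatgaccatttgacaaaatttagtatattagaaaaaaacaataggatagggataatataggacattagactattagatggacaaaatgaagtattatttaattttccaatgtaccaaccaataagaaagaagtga

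In windows of 300 bases around the start, reaching 50 bases into the gene and read on both strands, the P1BS motif was found in 1 of the 9 genes, ORE1, at bases -102 to -95 from the start (chr5:15860006-15860013). Over 26718 promoters of that length 6.24% held it. A G-box was found in NAP at -242 to -237 (chr1:26121838-26121843) and in NYC1 at 34 to 39, inside the transcript, against 7.79% of promoters. PAO and PPH held neither a P1BS motif nor a G-box. The W-box core (TTGAC), which WRKY factors bind, was found in 5 of the 9 genes, against 50.5% of promoters. The motifs do not overlap by their letters, apart from a W-box core in NYC1 that shares 1 base with the G-box. These are matches of letters, not binding sites.

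ORE1 transcripts are known targets of miR164, a microRNA whose decline with leaf age lets ORE1 rise. The mature sequence and the site are shown because this control acts on the transcript counted here. Both were read from the genome in DNA letters, with capitals for the seed (bases 2 to 8) in the microRNA and for the bases that pair with it in the site.
miR164a, chr2:19520770-19520790, plus strand: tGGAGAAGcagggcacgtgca
ORE1 site, chr5:15858797-15858817, minus strand: ctCACGTGaCCTGCTTCTCCg
Of the 21 bases 17 pair with miR164a, and the site lies in the coding part of the last exon. miR164 itself was not measured in these poly(A) libraries.

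The depth per library was 0.72 to 10.67 M gene counts, with a median of 4.1 M over all libraries, 4.21 M in experiment A and 3.8 M in B. The targeted genes were checked first. PHR1 had a median of 69.7 CPM (read counts scaled to the library total) in Col-0, 63.6 in phf1 and 30.3 in phr1phl1, PHL1 had 14.2, 13 and 57.4, and PHF1 had 15.3, 14.5 and 15.9. Transcripts of a mutated gene can persist, so the PHF1 level checks nothing. In all, 6 libraries were in doubt. In the library labelled A1 of Col-0 without bacteria at low Pi after +Phi, and in that labelled A1 of phr1phl1 with SynCom at high Pi after +P, PHR1 and PHL1 stood to each other as in the other genotype. In phf1 with SynCom at high Pi, PHL1 of A2 after -P and of A1 after +Phi stood at 74.7 and 31.6 CPM, above other phf1 libraries. In Col-0 without bacteria at high Pi after +P, B1 and B2 lay far apart, with a residual SD of 0.642 each. That measure does not tell which of them is at fault, and B1 was the library counted as in doubt. Library A1 of phr1phl1 with SynCom at low Pi after -P was the shallowest. Results are given with every library, and where leaving out those 6 ended or made a call of a member this is said beside it.

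All values below are CPM after TMM scaling, and differences are on the log2 scale with their standard error from edgeR's quasi-likelihood test. Its p-values were adjusted (Benjamini-Hochberg) over the 19321 genes that passed the filter on low counts, and a gene was called at an adjusted p under 0.05. SAG12 did not pass the filter, so 8 of the 9 members were tested. SAG12 was at 0 in 129 libraries. The other 15 libraries, 12 of them in experiment A, held 62 SAG12 counts in all and at most 17, and 6 libraries held more than 3 counts. A count of 0 allows up to 3 counts, which is 0.281 CPM in the deepest library and 4.17 CPM in the shallowest, for counting error only. Outside those 6 libraries the late, age-bound marker was at or under that limit. The other 8 members passed the filter, so that the description of senescence genes rests on them.

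Per kilobase of exon, SEN1 stood far above the rest with a mean of 1072 CPM per kb over all libraries. NYC1 followed at 53.4, PPH at 52, PAO at 45.3, NAP at 38.4, SAG13 at 25.7, ORE1 at 25.3 and SGR1 at 20.1 CPM per kb, and SAG12 was at 0.0598 CPM per kb. In CPM, SEN1 ran from 46.9 to 5179 with a median of 972, a far wider span than NYC1 (23.4 to 309, median 109), PPH (62.9 to 252, median 113) or PAO (30.6 to 208, median 87.8). NAP ran from 9.99 to 145 CPM (median 42.2), SGR1 from 16.3 to 65.3 (median 34.1), ORE1 from 6.16 to 87.9 (median 32.8) and SAG13 from 0 to 190 (median 16.2). Some of these ends lie in libraries in doubt. The 190 CPM of SAG13 and 65.3 of SGR1 were in A1 of phr1phl1 with SynCom at high Pi after +P. The 5179 CPM of SEN1 and 30.6 of PAO were in B1 of Col-0 without bacteria at high Pi after +P.

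**Figure D1:**
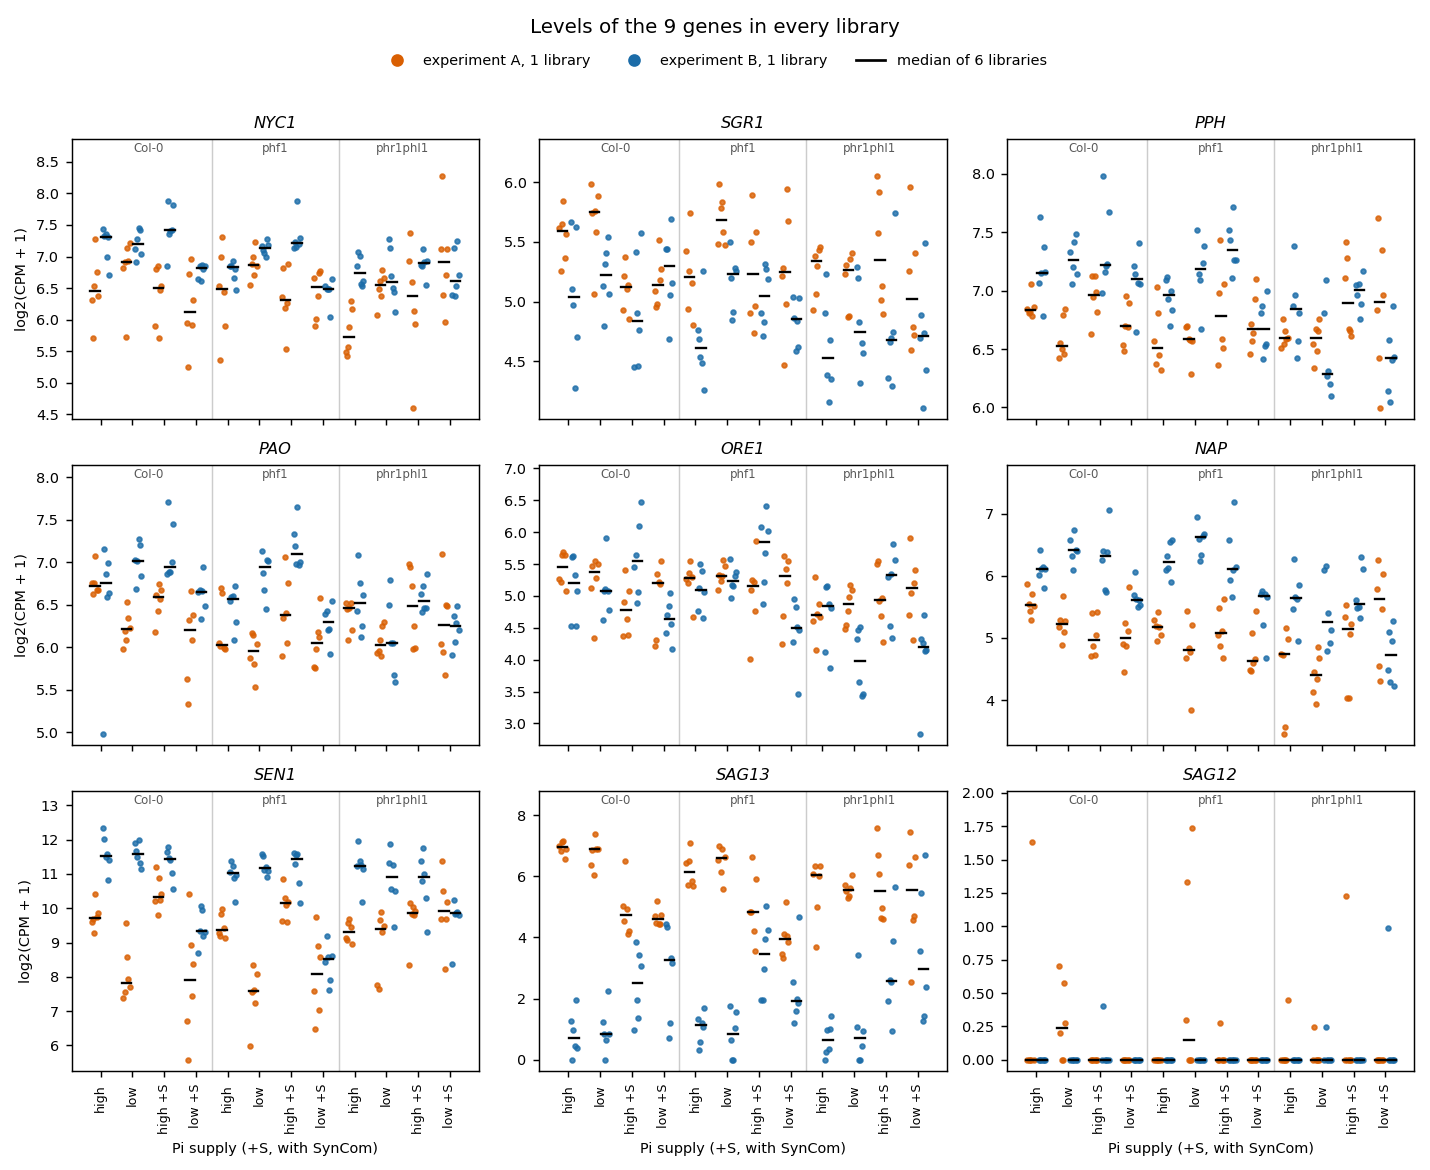
Each panel plots log2(CPM + 1) of 1 gene in every library, by genotype, Pi supply and bacteria, with 1 point per library (orange for experiment A, blue for B) and a bar at the median of 6 libraries. SEN1 moves most with Pi supply, SAG13 is set apart by experiment, and SAG12 lies near 0 throughout.

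The 12 conditions (genotype by Pi by bacteria, 6 libraries each) were ordered by their mean in each experiment. Most neighbours in these orders were closer than the spread of their libraries. Neighbours in a sorted order are close by construction, and each SD joins libraries of all pre-treatments, so this is a description and no test. Of 176 neighbouring pairs over the 8 tested members and both experiments, 5 were separated by more than the larger SD of the pair. In experiment B SEN1 was highest in Col-0 at high Pi without bacteria, at 3286 ± 1187 CPM (SD, n = 6), and lowest in phf1 at low Pi with SynCom, at 355 ± 135 CPM. The order of SEN1 in B had 2 such gaps, between 1980 CPM in phr1phl1 at high Pi with SynCom and 871 CPM in phr1phl1 at low Pi with SynCom, and between 723 CPM in Col-0 and 355 CPM in phf1 at low Pi with SynCom. In experiment A SEN1 was highest in Col-0 at high Pi with SynCom (1489 ± 544 CPM) and lowest in phf1 at low Pi without bacteria (199 ± 91.5 CPM), with no such gap. The other gaps were in NAP in B, where phr1phl1 at low Pi with SynCom came last at 26.5 CPM after phf1 at 44.3 CPM, in NYC1 in B between 139 and 117 CPM, and in PAO in A between 108 and 92.4 CPM, the levels of Col-0 at high Pi without and with bacteria. The orders of ORE1, SGR1, PPH and SAG13 had no such gap in either experiment, though their ends could lie far apart. SAG13 in A ran from 122 ± 17.4 CPM in Col-0 at high Pi without bacteria to 16.4 ± 9.25 CPM in phf1 at low Pi with SynCom.

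The experiments differed for most members. Without bacteria all 8 tested members differed between A and B, where 74% of all genes did, and with SynCom 7 of 8 did, against 57.8% of all genes. SAG13 was higher in A, by 6.83 ± 0.27 without bacteria (adjusted p = 7.04e-38) and by 2.23 ± 0.2 with SynCom (adjusted p = 1.47e-16), and SGR1 by 0.51 ± 0.08 and 0.32 ± 0.08. In B SAG13 had a median of 1.63 CPM and was at 0 in 7 of 72 libraries, so the size of its difference is uncertain. SEN1, NAP, NYC1, PAO and PPH were lower in A. Without bacteria the differences were -2.38 ± 0.13 for SEN1, -1.16 ± 0.08 for NAP, -0.46 ± 0.09 for NYC1, -0.36 ± 0.06 for PPH and -0.35 ± 0.07 for PAO, and with SynCom -0.69, -0.65, -0.49, -0.15 and -0.36. ORE1 was higher in A without bacteria by 0.26 ± 0.09, a call that ended without replicate A2 or B1, and the PPH difference with SynCom was not called without A1 or B2. The summed level of 6 leaf markers was also lower in A: in Col-0 at low Pi without bacteria its median was 13376 CPM in A and 32110 CPM in B, and each of the 12 conditions had the lower median in A. Its part in these differences was not tested. In bulk RNA, fewer cells of a type and less RNA per cell cannot be told apart. For this reason values of A and B are given beside the calls of members.

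Low against high Pi asks whether phosphate supply over the 12 days moved the senescence genes, and whether it did so without bacteria or with them. With SynCom several members fell at low Pi in Col-0 and phf1, SEN1 most, and none rose. Without bacteria 1 call was made in 3 genotypes, SGR1 in phf1. With SynCom 4 of 8 tested members fell in Col-0, where 44.3% of all genes were called, and 6 of 8 fell in phf1, where 40.9% were. In phr1phl1 none was called, against 10.4% of all genes with SynCom and 0.492% without. Without bacteria 0.75% of all genes were called in Col-0 and 5.69% in phf1. The share of members called in Col-0 is close to that of all genes, and says nothing particular of them. SEN1 had the largest change among the members. Of 6 leaf markers 4 fell as well in Col-0 with SynCom (median -0.4) and 1 fell in phf1 (median -0.01), and of 7 tested root markers 2 rose and 1 fell in Col-0 and 2 rose in phf1. Their part in the members' changes was not tested.

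**Figure D2:**
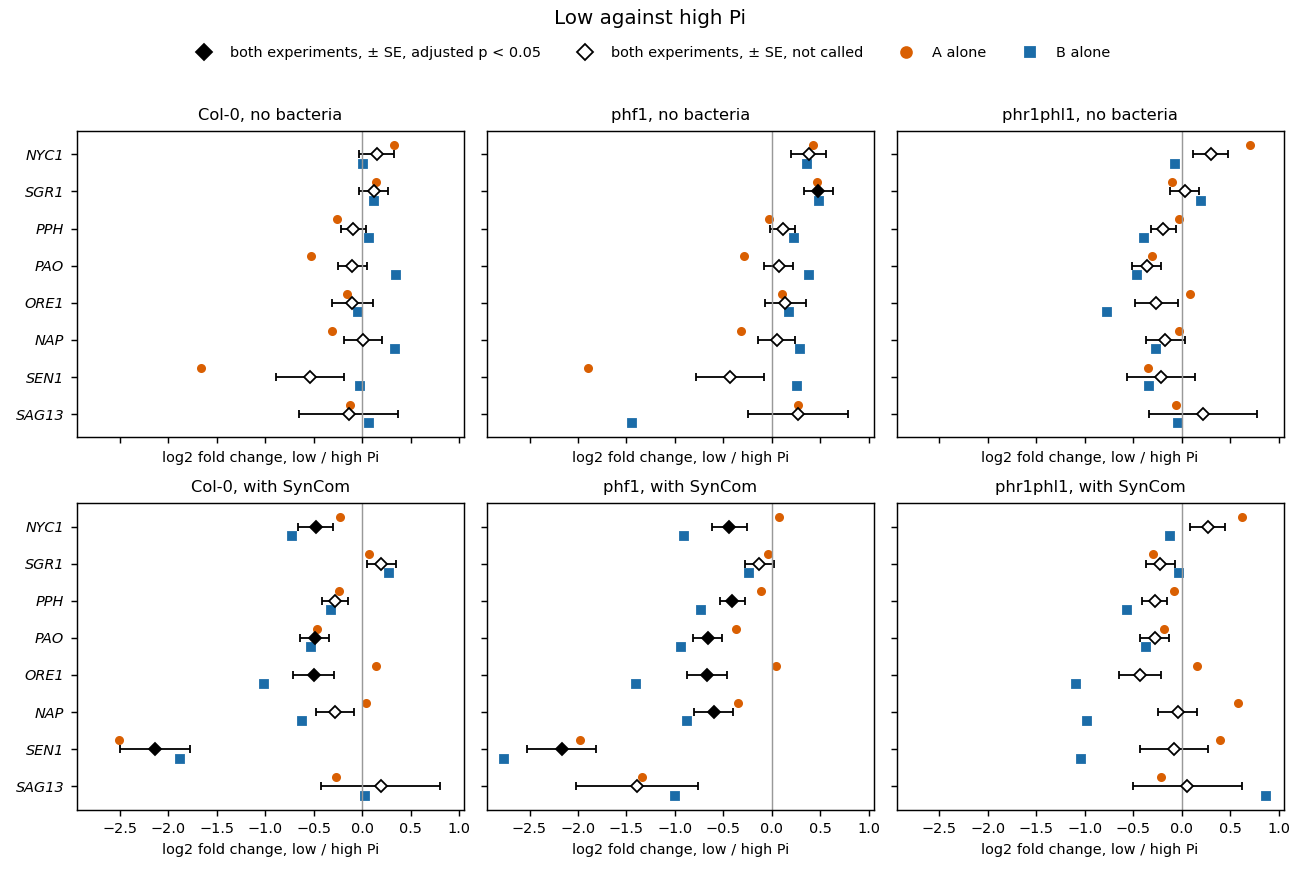
Each panel plots the log2 fold change of low over high Pi for the 8 tested genes in 1 genotype, without bacteria (top row) or with SynCom (bottom row), as diamonds with their standard error (filled where the adjusted p was under 0.05), and for experiments A (circles) and B (squares) alone. SEN1 lies at -2.14 in Col-0 and -2.17 in phf1 with SynCom and at -0.08 in phr1phl1.

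NYC1, the first enzyme, was at 37.3 to 123 CPM in A (median 69.6) and 97.3 to 116 in B (median 112) in Col-0 at low Pi with SynCom. At high Pi it was at 51.3 to 115 in A (median 89.5) and 114 to 234 in B (median 169). The ranges overlapped widely in A and by little in B. NYC1 fell by 0.48 ± 0.18 (adjusted p = 0.0249), with -0.23 in A alone and -0.72 in B alone. In phf1 it fell by 0.44 ± 0.18 (adjusted p = 0.0472), with 0.07 in A and -0.91 in B. Both calls ended without replicate B1 or B2, and the phf1 call was kept in 6 of 13 alternatives. SGR1, the magnesium-dechelating enzyme, was the enzyme gene that rose. It did so in phf1 without bacteria, by 0.48 ± 0.15 (adjusted p = 0.0403), from 26.9 to 52.4 CPM in A and 18.2 to 37.2 in B at high Pi to 43.3 to 62.2 in A and 27.7 to 44.1 in B at low Pi. The change was 0.47 in A and 0.49 in B, but the call was kept in 8 of 13 alternatives and ended without A1, A2 or B2.

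PPH, the pheophytinase, fell in phf1 with SynCom by 0.41 ± 0.13 (adjusted p = 0.00609). It was at 86.8 to 136 CPM in A and 84.2 to 127 in B at low Pi, against 81.5 to 172 in A and 137 to 209 in B at high Pi, so that the groups overlapped in A and were apart in B. The change was -0.11 in A and -0.73 in B, and the call ended without B1 or B2. In Col-0 with SynCom PPH was at -0.28 and was not called (adjusted p = 0.0679; A -0.24, B -0.32). PAO, the ring-opening oxygenase, fell in both. In Col-0 with SynCom it was at 39.4 to 100 CPM in A (median 72.8) and 79.5 to 122 in B (median 100) at low Pi, against 71.7 to 106 in A (median 95.3) and 115 to 208 in B (median 122) at high Pi. The ranges overlapped in both experiments, and PAO fell by 0.49 ± 0.15 (adjusted p = 0.0058; A -0.47, B -0.53). In phf1 PAO fell by 0.66 ± 0.15 (adjusted p = 0.000236; A -0.37, B -0.94), from a median of 81.9 to 65.2 CPM in A and of 136 to 77.8 in B, where the groups did not overlap. The phf1 call was kept in all 13 alternatives and the Col-0 call in 12, all but that without replicate B2. Between experiments the phf1 changes with SynCom differed by 0.58 for PPH, 0.95 for NYC1 and 0.54 for PAO, none called. Leaving out the 6 libraries in doubt gave 0.85, 1.19 and 0.8, all called. PAO overlaps AT3G44870 on the same strand by 11 bases, and no other member overlaps a gene.

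ORE1, the NAC factor upstream of many senescence genes, fell with SynCom in Col-0 by 0.5 ± 0.21 (adjusted p = 0.0487) and in phf1 by 0.67 ± 0.21 (adjusted p = 0.00862). The pooled values join unlike experiments. In Col-0 the medians were 35.7 CPM at low and 26.5 at high Pi in A, but 23.8 and 45.9 CPM in B, so that ORE1 changed by 0.14 in A and by -1.01 in B. In phf1 the medians were 38.9 and 34.7 CPM in A and 21.5 and 57.1 in B, with changes of 0.04 and -1.4. The difference between experiments was itself called, at 1.15 ± 0.33 in Col-0 (adjusted p = 0.0294) and 1.41 ± 0.33 in phf1 (adjusted p = 0.0107), where 3.27% and 1.35% of all genes were called. The same split appeared in phr1phl1, at 1.25 ± 0.34 (adjusted p = 0.0382; 1.24% of all genes called), with no call for ORE1 over both experiments. The Pi call in Col-0 was kept in 6 of 13 alternatives, and those in both genotypes ended without B1 or B2. Of the calls between experiments, those in Col-0, phf1 and phr1phl1 were kept in 6, 8 and 6 of 10 alternatives, and all 3 ended without A1 or B1.

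NAP, the NAC factor tied to abscisic acid in ageing leaves, fell with SynCom in phf1 by 0.6 ± 0.2 (adjusted p = 0.0107; A -0.35, B -0.88). It was at 21.2 to 42.3 CPM in A and 24.5 to 53.1 in B at low Pi, against 24.7 to 48.4 in A and 49.5 to 145 in B at high Pi. The ranges overlapped in both experiments, and the call ended without the experiment term or without B1. In Col-0 it was at -0.28 (adjusted p = 0.246; A 0.04, B -0.62). In phr1phl1 with SynCom NAP went opposite ways: medians were 48.7 CPM at low and 34.5 at high Pi in A, and 25.7 and 46 CPM in B, which gave 0.58 in A, -0.98 in B and a difference of 1.57 ± 0.28 (adjusted p = 0.000532). In B the groups were apart. That difference was not called without replicate B1.

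SEN1, the dark-inducible marker, carried the largest Pi effect of the members. In Col-0 with SynCom it was at 46.9 to 1357 CPM in A (median 252) and 414 to 1078 in B (median 642) at low Pi. At high Pi it was at 892 to 2372 in A (median 1296) and 1512 to 3503 in B (median 2788). The groups overlapped in A and were apart in B. SEN1 fell by 2.14 ± 0.36 (adjusted p = 7.81e-07), to a ratio of 0.227, with -2.51 in A and -1.88 in B. In phf1 it fell by 2.17 ± 0.36 (adjusted p = 7.99e-07), with -1.98 in A and -2.76 in B, and was at 197 to 579 CPM at low against 1143 to 3154 at high Pi in B. Both calls were kept in all 13 alternatives. In phr1phl1 with SynCom the medians were 991 CPM at low and 938 at high Pi in A and 925 and 1913 CPM in B, with a pooled change of -0.08 ± 0.35 (adjusted p = 0.917). In B alone SEN1 fell there by 1.04 ± 0.24 (adjusted p = 0.00206), while A alone gave 0.4.

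Without bacteria a SEN1 response to Pi was called in experiment A and not in B. In A SEN1 fell in Col-0 by 1.66 ± 0.35 (adjusted p = 0.00273), from 620 to 1376 CPM at high Pi to 166 to 754 at low Pi, and in phf1 by 1.9 ± 0.35 (adjusted p = 0.000175), from 558 to 1014 CPM to 62.3 to 323, with no overlap in phf1. In B it was at 2271 to 4040 CPM at low and 1800 to 5179 at high Pi in Col-0 and at 1943 to 3051 and 1150 to 2667 CPM in phf1, with changes of -0.02 and 0.26. The difference between experiments was -1.64 ± 0.43 in Col-0 (adjusted p = 0.0323) and -2.17 ± 0.43 in phf1 (adjusted p = 0.000544), where 1.54% and 12.6% of all genes were called. In Col-0 that call was kept in 6 of 10 alternatives and in phf1 in 9 of 10, all but that without B1. PAO differed in the same sense in Col-0 (-0.87 ± 0.25, adjusted p = 0.0454), a call kept in 4 of 10 that ended, among others, without the 6 libraries in doubt, at -0.57. The PAO difference in phf1 was -0.67, not called, and -0.66, called, without those libraries. In phr1phl1 without bacteria SEN1 changed by -0.35 in A and -0.34 in B, neither called, and no member differed between experiments, where 0.0518% of genes did.

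SAG13 gave no call for Pi in any genotype. In phf1 with SynCom it was at 9.15 to 34.4 CPM at low and 10.8 to 98.4 at high Pi in A, and at 1.3 to 24.4 and 2.84 to 31.3 in B. The ranges overlapped, and the change was -1.39 ± 0.63 (adjusted p = 0.067; A -1.34, B -1). For the 3 comparisons without any call (Col-0 without bacteria and both in phr1phl1), 2 of 24 tests had an unadjusted p under 0.05, and neither DESeq2 nor limma-voom called a member.

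The presence of SynCom against none was compared at each Pi supply, against controls that the Pi comparisons share. At low Pi SEN1 and NYC1 fell in Col-0, where 28.1% of all genes were called, and SEN1, NAP and NYC1 fell in phf1 (18.2%). At high Pi none of the 8 was called in Col-0 (7.85%), and PAO rose in phf1 (5.06%). In phr1phl1 no member was called at low Pi (4.48%) or at high Pi (4.51%). Leaving out the 6 libraries in doubt also gave calls at low Pi for NAP in Col-0 (-0.52) and SGR1 in phf1 (-0.39).

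**Figure D3:**
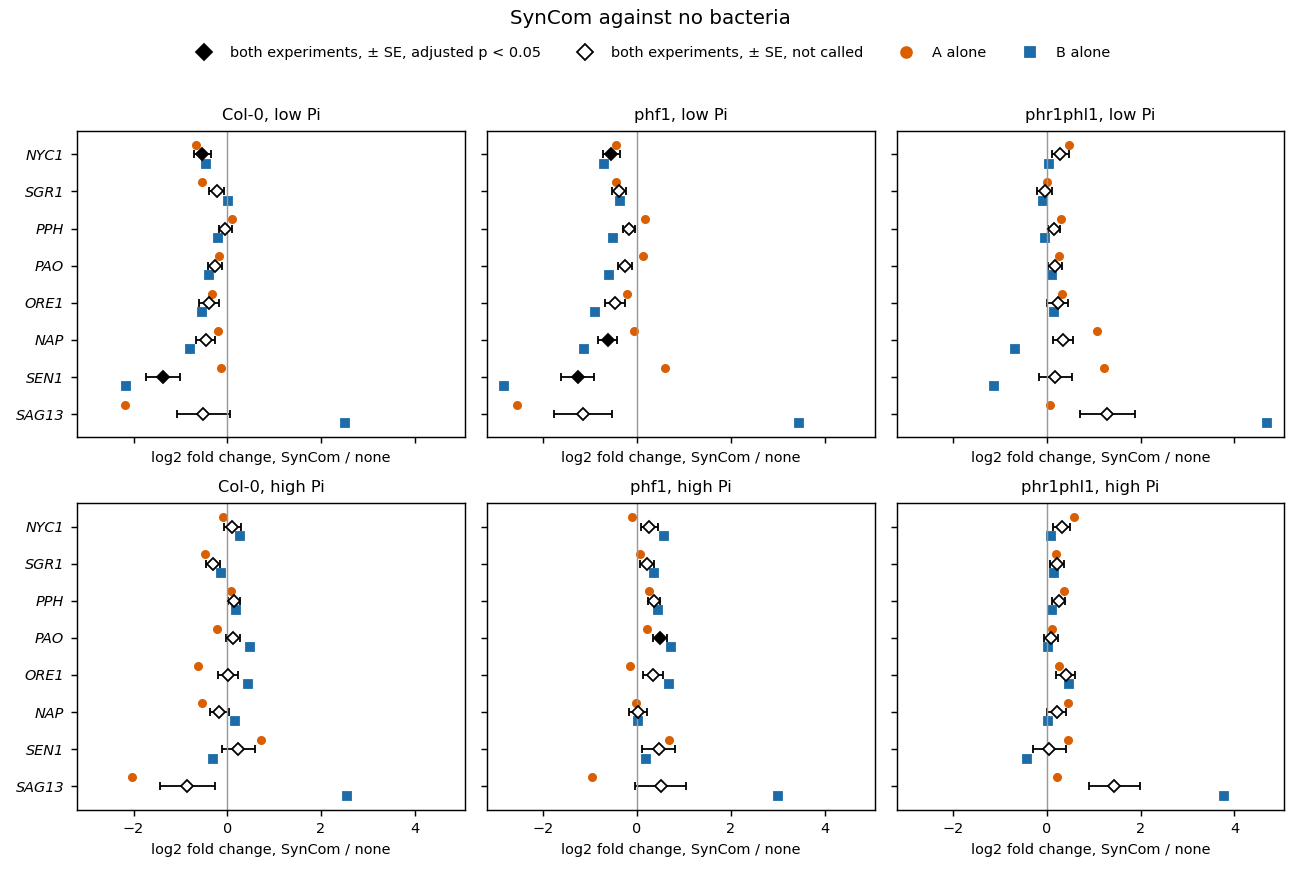
Each panel plots the log2 fold change of SynCom over no bacteria for the 8 tested genes in 1 genotype, at low Pi (top row) or high Pi (bottom row), with the symbols of the plot of low against high Pi. SAG13 lies below or near 0 in experiment A and between 2.52 and 4.69 in experiment B in all 6 panels.

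NYC1 fell with SynCom at low Pi by 0.53 ± 0.18 in Col-0 (adjusted p = 0.0206; A -0.67, B -0.45) and by 0.55 ± 0.18 in phf1 (adjusted p = 0.0226; A -0.46, B -0.7). In Col-0 its median went from 120 to 69.6 CPM in A and from 146 to 112 CPM in B, with no overlap in B (119 to 174 against 97.3 to 116). In phf1 the median went from 116 to 90.8 CPM in A and from 140 to 88.7 in B, again apart in B (126 to 154 against 64.9 to 99). NYC1 was below 0 in all 4 of these single-experiment values and called in 3 of them. Each call was kept in 9 of 13 alternatives and ended without the experiment term and without B1, that in Col-0 also without A2 and that in phf1 also without A1 or B2. PAO rose in phf1 at high Pi by 0.48 ± 0.15 (adjusted p = 0.0417; A 0.21, B 0.72), from a median of 64.3 to 81.9 CPM in A and of 93.6 to 136 CPM in B, where the groups did not overlap. Without the 6 libraries in doubt this call ended, at 0.42, and over the 13 alternatives its adjusted p ran from 0.00135 to 0.403.

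NAP fell with SynCom at low Pi in phf1 by 0.63 ± 0.2 (adjusted p = 0.0169), with -0.06 in A and -1.14 in B. The call was kept in 10 of 13 alternatives and ended without the experiment term, without B1 (-0.33, adjusted p = 0.352) and without B2. In B it was at 74.5 to 122 CPM without and at 24.5 to 53.1 CPM with SynCom, with no overlap, while in A it was at 13.3 to 42.2 and 21.2 to 42.3 CPM. The experiments differed in this effect by 1.07 (adjusted p = 0.00187), a call that ended without A1 or B1. In phr1phl1 at low Pi they differed by 1.75 (adjusted p = 1.75e-05), which was called in all 10 alternatives. ORE1 gave no call for SynCom over both experiments. Its effect differed between experiments in Col-0 at high Pi, by -1.06 (adjusted p = 0.014), a call kept in 7 of 10 alternatives and ended without A1, without B1 and in limma-voom. In the same condition the effect for PAO differed by -0.71 (adjusted p = 0.0331), a call that ended without A1, without A2, in limma-voom and without the 6 libraries in doubt, at -0.52. In phf1 at low Pi the effects for PAO and PPH differed between experiments by 0.71 (adjusted p = 0.0232) and 0.66 (adjusted p = 0.0077), and both calls ended without A1, A2 or B1. Leaving out the 6 libraries in doubt made further differences called. They were -0.8 for PAO, -0.95 for NYC1 and -1.12 for ORE1 in phf1 at high Pi, and -0.73 for SGR1 in Col-0 at low Pi.

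SEN1 fell with SynCom at low Pi by 1.37 ± 0.36 in Col-0 (adjusted p = 0.00169) and by 1.27 ± 0.36 in phf1 (adjusted p = 0.00687), and was called in experiment B and not in A. In B SEN1 went from 2271 to 4040 CPM without bacteria to 414 to 1078 with SynCom in Col-0, and from 1943 to 3051 to 197 to 579 CPM in phf1, with no overlap in either. In A it was at 166 to 754 and 46.9 to 1357 CPM in Col-0 and at 62.3 to 323 and 88.9 to 855 CPM in phf1. The effects were -2.17 in B and -0.13 in A for Col-0, and -2.83 and 0.6 for phf1. The experiments differed by 2.03 in Col-0 (adjusted p = 0.000179), by 3.41 in phf1 (adjusted p = 7.78e-09) and by 2.32 in phr1phl1 (adjusted p = 0.0001). In phr1phl1 at low Pi SEN1 rose with SynCom in A by 1.21 ± 0.35 (adjusted p = 0.0215) and fell in B by 1.13 ± 0.24 (adjusted p = 0.000718), so that the pooled value was 0.18 ± 0.35. At high Pi SEN1 was at 0.23 in Col-0 (A 0.72, B -0.31), 0.46 in phf1 (A 0.68, B 0.2) and 0.05 in phr1phl1 (A 0.45, B -0.43), none called. Without replicate B1 the calls at low Pi ended in Col-0 and phf1, and that in phf1 also without B2 or with the compared libraries alone.

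SAG13, a short-chain dehydrogenase gene, responded to SynCom differently in the experiments, with calls in opposite directions in Col-0 and phf1 at low Pi. In A without bacteria it was at 65.1 to 167 CPM in Col-0 at low Pi (median 117), and with SynCom at 20.9 to 35.7 CPM (median 23.2). In B it was at 0 to 3.75 CPM without bacteria (median 0.787) and at 0.655 to 20.5 CPM with SynCom (median 8.53). The groups were apart in A and overlapped in B, and the levels of A without bacteria stood above all those of B. SAG13 fell with SynCom in A by 2.18 ± 0.36 (adjusted p = 9.57e-06) and rose in B by 2.52 ± 0.87 (adjusted p = 0.0206), a difference of -4.7 (adjusted p = 0.000157). In Col-0 at high Pi it fell in A by 2.03 ± 0.36 and was at 2.56 ± 0.86 in B, not called (adjusted p = 0.0574), and in phf1 at low Pi it fell by 2.57 ± 0.39 in A and rose by 3.46 ± 1.17 in B. In phf1 at high Pi SAG13 was at -0.96 in A, not called, and rose by 3.01 ± 0.69 in B. In phr1phl1 it was at 0.06 and 0.21 in A at low and high Pi, not called, and rose by 4.69 ± 1.14 and 3.78 ± 0.92 in B. In B without bacteria at low Pi SAG13 was at 0 to 2.42 CPM in phf1 and at 0 to 9.75 CPM in phr1phl1. At high Pi it was at 0 to 2.88 CPM in Col-0, 0.256 to 2.22 in phf1 and 0 to 1.71 in phr1phl1. These levels lie near the floor, so the sizes of the rises in B and of the differences between experiments are uncertain.

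The difference between experiments in the SAG13 response was called in all 6 comparisons. It was -4.6 in Col-0 at high Pi (adjusted p = 0.000167), -6.09 in phf1 at low Pi (adjusted p = 1.56e-05), -3.96 in phf1 at high Pi (adjusted p = 0.000349), -4.67 in phr1phl1 at low Pi (adjusted p = 0.00644) and -3.59 in phr1phl1 at high Pi (adjusted p = 0.0156). For all genes the share called was 28.2% in Col-0, 32.2% in phf1 and 16.4% in phr1phl1 at low Pi, and 17.7%, 6.52% and 8.42% at high Pi. Calls in Col-0 at low Pi and in phf1 at both Pi supplies were kept in all 10 alternatives. That in Col-0 at high Pi was kept in 8 and ended without B2 and in limma-voom. Those in phr1phl1 were kept in 7 of 10 at low Pi and 6 of 10 at high Pi, and both ended without B1 and in limma-voom, with A1 also deciding the former and A2 and B2 the latter. Over both experiments SAG13 was called in none of the 6 SynCom comparisons. For the 3 comparisons without any call, 3 of 24 tests had an unadjusted p under 0.05, DESeq2 called 2 and limma-voom 1. In experiment B at high Pi the summed level of 8 root markers in Col-0 had a median of 624 CPM with SynCom and 1129 CPM without, and of 1326 and 1075 CPM in A. Its part in these results was not tested.

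Genotypes were compared within each Pi supply and bacterial treatment. The mutant phf1 gave no member call against Col-0 in 4 comparisons, where 3.15% (low Pi, no bacteria), 0.0673% (low Pi, SynCom), 4.23% (high Pi, no bacteria) and 0.254% (high Pi, SynCom) of all genes were called. Of these 32 tests 3 had an unadjusted p under 0.05, DESeq2 called none and limma-voom 2. The 3 were in seedlings at high Pi without bacteria, SGR1 (-0.38 ± 0.15; A -0.33, B -0.43), PAO (-0.37 ± 0.15; A -0.54, B -0.19) and PPH (-0.26 ± 0.13; A -0.27, B -0.27). Without the 6 libraries in doubt PAO was called there, at -0.49.

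The double mutant phr1phl1 had lower transcripts of 4 members than Col-0 at low Pi without bacteria, where 4.5% of all genes were called, and higher SEN1 at low Pi with SynCom, where 28.3% were. NAP fell by 0.93 ± 0.2 (adjusted p = 0.00194), with -0.9 in A and -1.03 in B. It was at 14.3 to 27.8 CPM in A and 26.7 to 70.2 in B in phr1phl1, against 28.7 to 50.4 in A and 67.3 to 106 in B in Col-0, apart in A and overlapping by little in B. NAP was called in each experiment alone and in 12 of 13 alternatives, all but that without the experiment term. ORE1 fell by 0.73 ± 0.22 (adjusted p = 0.0313; A -0.46, B -1.19), with medians of 28.4 and 40.6 CPM in phr1phl1 and Col-0 in A and of 15.3 and 32.8 in B, where the ranges were 9.79 to 21.8 and 23.7 to 59 CPM. PAO fell by 0.52 ± 0.15 (adjusted p = 0.0306; A -0.18, B -0.9) and PPH by 0.41 ± 0.13 (adjusted p = 0.0449; A -0.03, B -0.81). The ORE1, PAO and PPH calls ended without the experiment term and without A2, B1 or B2, and without the 6 libraries in doubt SGR1 joined them at -0.53.

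**Figure D4:**
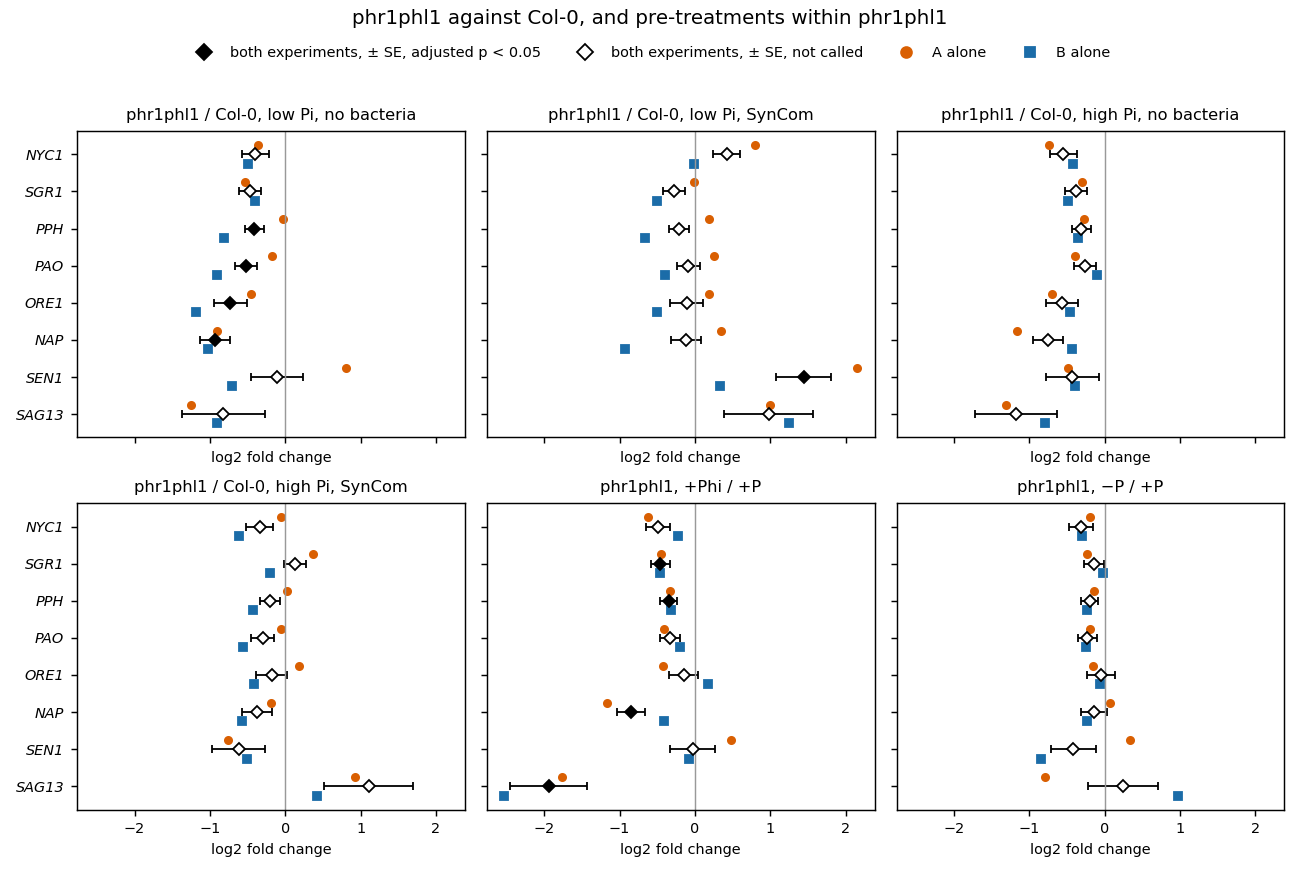
The panels plot the log2 fold change of phr1phl1 over Col-0 in 4 conditions and of the +Phi and -P over the +P pre-treatment within phr1phl1, with the symbols of the plot of low against high Pi. At low Pi without bacteria all 8 diamonds lie below 0, with 4 filled, and with SynCom SEN1 lies at 1.44.

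With SynCom at low Pi SEN1 was higher in phr1phl1 than in Col-0 by 1.44 ± 0.36 (adjusted p = 0.000995). In A it was at 298 to 2685 CPM (median 991) in phr1phl1 and at 46.9 to 1357 (median 252) in Col-0, and in B at 333 to 1202 (median 925) and 414 to 1078 (median 642). The ranges overlapped in both experiments, with 2.15 in A and 0.33 in B. The call ended without the experiment term or without replicate A2. At high Pi no member was called in phr1phl1 against Col-0, where 0.119% of all genes were called without bacteria and 1.37% with SynCom. Of these 16 tests 6 had an unadjusted p under 0.05, DESeq2 called none and limma-voom 3. All 6 were without bacteria, with NAP at -0.75 ± 0.2 (A -1.17, B -0.43) and NYC1 at -0.55 ± 0.18 (A -0.74, B -0.42) the smallest in p.

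The pre-treatments, which had ended 12 days before harvest, left calls in 1 of 6 comparisons. In phr1phl1, +Phi against +P lowered NAP, SAG13, SGR1 and PPH, where 5.31% of all genes were called. NAP was at 9.99 to 49.3 CPM after +Phi (median 20.8, n = 16) and at 16.6 to 76.4 CPM after +P (median 43.6), and fell by 0.85 ± 0.18 (adjusted p = 0.00166; A -1.17, B -0.41). SAG13 was at 0 to 66.9 CPM after +Phi (median 4.8) and 0 to 190 after +P (median 43.8), and fell by 1.94 ± 0.51 (adjusted p = 0.014; A -1.77, B -2.53). The 190 CPM was in A1 with SynCom at high Pi, a library in doubt. Leaving out the 6 libraries in doubt gave -1.83, still called (adjusted p = 0.0292). SGR1 fell by 0.46 ± 0.13 (adjusted p = 0.0262; A -0.45, B -0.46) and PPH by 0.35 ± 0.11 (adjusted p = 0.0452; A -0.33, B -0.32), and both calls ended without the 6 libraries in doubt. The ranges overlapped for all 4 genes, and all 4 calls ended without the experiment term and without replicate A2, those of SAG13, SGR1 and PPH also without B2 and that of SAG13 without A1.

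In Col-0 and phf1, +Phi against +P gave no member call, with 1.48% and 0.771% of all genes called, and none of the 16 tests had an unadjusted p under 0.05. The -P pre-treatment against +P gave no member call in Col-0 (0% of all genes called), phf1 (0%) or phr1phl1 (0.0207%). Of those 24 tests 1 had an unadjusted p under 0.05, and DESeq2 and limma-voom called no member in these 5 comparisons. Whether the +Phi effect differs between phr1phl1 and the other genotypes was not tested.

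Whether the response to Pi depended on SynCom was tested as a difference of differences. In Col-0 the low Pi change of SEN1 with SynCom minus that without was -1.6 ± 0.5 (adjusted p = 0.0234; A -0.85, B -1.87), where 10.6% of all genes were called. In phf1, where 10.8% were called, the same difference was -1.73 ± 0.5 for SEN1 (adjusted p = 0.0152; A -0.08, B -3.02), -0.81 ± 0.26 for NYC1 (adjusted p = 0.029; A -0.35, B -1.27), -0.73 ± 0.21 for PAO (adjusted p = 0.0173; A -0.09, B -1.32) and -0.53 ± 0.18 for PPH (adjusted p = 0.0434; A -0.09, B -0.96). In A alone none of these 5 was called and in B alone all 5 were. The 5 were chosen by their pooled calls, and the shares above are of the pooled fit. The shares of all genes called in A alone and in B alone are not given, so this count has no reference. All 5 ended without replicate B1 or B2, the SEN1 call in Col-0 also without A2, and the PPH call also without the 6 libraries in doubt. For NYC1 in Col-0 the difference was -0.63, not called (adjusted p = 0.0958), and -0.76, called, without the 6 libraries in doubt (adjusted p = 0.0464). In phr1phl1 no member was called (0.197% of all genes), none of its 8 tests had an unadjusted p under 0.05, and DESeq2 and limma-voom called none.

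Between genotypes, the Pi response with SynCom differed from Col-0 in phr1phl1 for SEN1 and NYC1, where 16.3% of all genes were called. The SEN1 response was higher by 2.06 ± 0.5 (adjusted p = 0.00204; A 2.91, B 0.84), from -2.14 in Col-0 to -0.08 in phr1phl1. That of NYC1 was higher by 0.76 ± 0.26 (adjusted p = 0.0318; A 0.85, B 0.6), from -0.48 to 0.27. The SEN1 call ended without the experiment term or without A2, and that of NYC1 was kept in 7 of 13 alternatives and ended whichever of the 4 replicates was left out. In phf1 against Col-0 no member was called (0.0621% of all genes), none of the 8 tests had an unadjusted p under 0.05, and DESeq2 and limma-voom called none. The difference for SEN1 was -0.03 ± 0.49.

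The members did not move as one group. Over the 36 group means within an experiment, which share libraries, depth and treatments, PPH and PAO had the highest correlation (Pearson r = 0.8 in A and 0.86 in B), and ORE1 and NAP had 0.53 in A and 0.8 in B. PPH and NYC1 had 0.37 in A and 0.8 in B, NYC1 and PAO 0.26 and 0.78, and SEN1 and NYC1 0.03 and 0.69. All pairs among ORE1, NAP, PPH, NYC1 and PAO lay between 0.65 and 0.86 in B, and between 0.26 and 0.8 in A. SGR1 and PPH had 0.35 in A and 0.64 in B. SAG13 and SEN1 had 0.04 in A and -0.49 in B. These values are descriptions of group means, not tests.

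**Figure D5:**
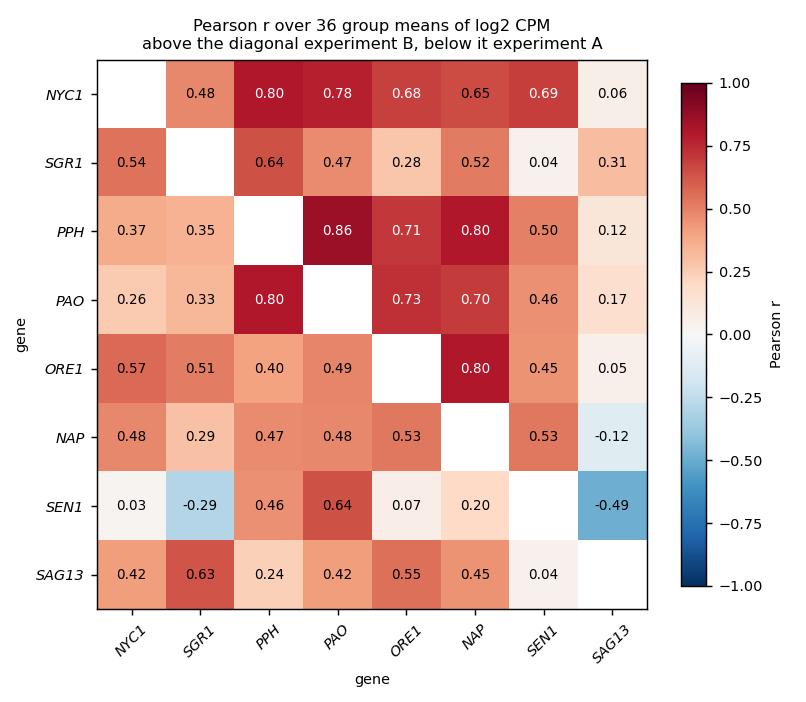
The grid shows Pearson's r between pairs of the 8 tested genes over the 36 group means of log2 CPM, for experiment B above the diagonal and experiment A below it. PPH and PAO have 0.86 in B and 0.8 in A, and SEN1 and SAG13 have -0.49 and 0.04.

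Over all 72 means of group and experiment, the genes most like each member were named from the whole table. SEN1 was most like AT3G15450, ACR9 and AGT, a photorespiratory aminotransferase gene, each at r = 0.97. SAG13 was most like AT3G13950 (0.94), AT5G52810 (0.9) and the wall-associated kinase gene WAK3 (0.9). PAO was most like ERD1, a Clp protease subunit gene (0.88), AT5G47860 (0.86) and PPDK (0.83), and PPH most like AT1G13990 (0.88), PAO (0.83) and AT5G18130 (0.82). The best values were lower for the others. NAP had AT5G18130 (0.74), ORE1 (0.69) and the trehalase gene TRE1 (0.68), ORE1 had NAP, FDH and RSH3 at 0.69, SGR1 had BPS1 and PRXCB at 0.75 and AT5G12890 at 0.74, and NYC1 had AT2G23450 and the catalase gene CAT1 at 0.69 and GLYI7 at 0.66. Means of both experiments enter these values after each gene's mean in each experiment was subtracted. A shared difference in level between A and B therefore does not enter them.

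Other genes of the same pathways were counted from lists beside the members, over both experiments. For Pi in Col-0 with SynCom, 2 of 10 other chlorophyll breakdown genes rose and 2 fell, with a median of -0.11 against 0.02 over all genes and -0.38 over the 8 tested members. Among all 19321 genes 4388 rose and 4171 fell there (44.3% called), a share that the counts of breakdown, regulator and synthesis genes in this comparison do not exceed. MES16, an esterase that acts on the colourless breakdown products, fell by 1.52 ± 0.2 and HCAR, the reductase that follows NYC1, by 0.87 ± 0.13, while the chlorophyllase gene CLH1 rose by 1.16 ± 0.32 and SGR2, a homologue of SGR1, by 0.93 ± 0.28. Of 20 other senescence regulators 4 rose and 4 fell (median -0.01), with NAC055 at -1.19 ± 0.24, PIF4 at -0.7 ± 0.13 and GLK1, a factor for chloroplast genes, at 0.75 ± 0.17. Of 14 other senescence-associated genes 3 rose and 6 fell (median -0.53), among them DIN10 at -2.14 and DIN6 at -1.55, both named, like SEN1, for their induction in darkness. PHT1;5, which rose by 2.97, is a phosphate transporter gene. Of 15 chlorophyll synthesis genes 2 rose and 3 fell (median 0), the latter CHLD, CRD1 and CHLM at -0.58, -0.55 and -0.48.

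In phf1 the same comparison gave 1 rise and 2 falls among 10 other breakdown genes (median -0.04), 2 and 6 among 20 regulators (median -0.11), 1 and 9 among 14 senescence-associated genes (median -1) and 4 and 2 among 15 synthesis genes (median 0.3), against a median of -0.01 over all genes and of -0.63 over the 8 tested members. Of all genes 40.9% were called, 3939 up and 3963 down. The 9 that fell included SAG14 (-1.76 ± 0.24), DIN10 (-1.86 ± 0.32), DIN6 (-1.37 ± 0.26), PPDK (-1.33 ± 0.25) and GDH2 (-1.05 ± 0.19). In phr1phl1 with SynCom none of the 14 senescence-associated genes was called, and 7 of 15 synthesis genes rose, where 10.4% of all genes were called (1081 up, 922 down). For SynCom at low Pi in Col-0, 8 of the 14 senescence-associated genes fell and 2 rose (median -0.69 against 0), where 28.1% of all genes were called (2852 up, 2583 down). The 8 included DIN2 (-1.81 ± 0.35), DIN10 (-1.33 ± 0.32) and BFN1 (-1.27 ± 0.27), a nuclease gene of senescence.

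Between phr1phl1 and Col-0 at low Pi with SynCom, where 28.3% of all genes were called (2795 up, 2675 down), 7 of 14 senescence-associated genes were higher and 1 lower (median 0.6 against 0), the lower one being PHT1;5 at -2.72 ± 0.35. Of 15 chlorophyll synthesis genes 9 were higher and none lower (median 0.48), and of 10 other breakdown genes 5 were higher and 2 lower (median 0.34), with MES16 at 1.36 ± 0.21. In the same comparison 3 of 6 leaf markers were higher and 3 of 7 tested root markers lower, and the part of this in the other counts was not tested. At low Pi without bacteria, where 4 members fell, none of the 14 senescence-associated genes was called and 2 of 20 regulators fell, where 4.5% of all genes were called (477 up, 392 down).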

How the data were processed

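The authors deposited raw read counts per gene, 1 column per library, for non-stranded poly(A) RNA-seq of whole seedlings in 36 groups of 4 libraries, and did not normalise them. The submitters' processing notes name CASAVA 1.8, cutadapt 1.3, TopHat2 2.1.1, HTSeq 0.6.1p1 and TAIR10, and give no role or order for them. As strand was not kept, overlapping genes may share reads.

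From these counts, CPM were computed after TMM scaling (factors 0.823 to 1.19). The low-count filter was filterByExpr with a minimum count of 10 and the 36 groups, and 19321 of 27206 genes passed it. A quasi-likelihood model (edgeR 4.0.16, R 4.3.3) held a mean per group and a term for experiment, with the dispersion estimated within glmQLFit. It gave 31 contrasts averaged over pre-treatments or groups, and a fit with a mean per group and experiment gave the differences between experiments. Values of A and B came from separate fits. Alternatives were no experiment term, the replicate numbers as a block, leaving out each replicate in turn, other filters, DESeq2 size factors within edgeR, a fit of the compared libraries alone, DESeq2 1.42.0, limma-voom with quality weights (limma 3.58.1), and leaving out the 6 libraries in doubt. The model was tested on simulated counts. A gene with no call may still have changed.

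Libraries of the same number were taken as unpaired. The mean correlation of residuals was 0.00941 in A and 0.00924 in B over 630 pairs of groups each. A mean over all pairs cannot exclude pairing within a part of the groups, and the labels do not tell. Per library, the SD of the log2 residuals ran from 0.151 to 0.642 (median 0.255). The p-values measure the spread between these libraries, which may be technical in part. In the pooled fit, with its additive term for experiment, unlike effects in A and B add to that spread. How results repeat over further experiments is not measured. The 9 members, the gene lists and the libraries in doubt were chosen with earlier results of these data known. Named genes of other lists are among those called. Likeness was ranked by Pearson's r over 72 means of log2 CPM, after subtracting the mean of each experiment. Positions, promoters and the miR164 site came from the RefSeq annotation of TAIR10.1. Intervals and limits cover counting error only.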

Additional observations from a re-analysis of the deposited data

Results flagged for a closer look

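In 10 of 288 sets of 4 libraries (3.47%) 1 library stood far from the other 3 of its group, by Dixon's test at the 95% level. Chance flags about 1 in 20 sets drawn from 1 population, but each set here joins 2 libraries of A with 2 of B, so that share is no reference for these 10. SEN1 was at 1464 CPM in phr1phl1 -P, low Pi, no bacteria, B2, against 638 to 720 in the others. ORE1 was at 50.1 CPM in phf1 +Phi, high Pi, SynCom, B2, against 36.2 to 37.1. SGR1 was at 18.9 CPM in phr1phl1 +Phi, low Pi, no bacteria, B2, against 27.5 to 28.4. PPH was at 111 CPM in phr1phl1 -P, high Pi, no bacteria, B2, against 94 to 95.7. NYC1 was at 164 CPM in phr1phl1 +P, high Pi, SynCom, A2, against 115 to 121.

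PAO accounted for 5 of the 10. It was at 126 CPM in B1 of Col-0 without bacteria at high Pi after -P, against 98.7 to 101, and at 66.7 CPM in phf1 +Phi, high Pi, no bacteria, B2, against 96.1 to 103. It was at 61.9 CPM in phf1 +Phi, low Pi, SynCom, A1, against 71.4 to 72.9. In phr1phl1 PAO was at 135 CPM in +P, high Pi, no bacteria, B2, against 84.8 to 90.5, and at 72.4 CPM in -P, low Pi, SynCom, B2, against 88.2 to 89.1.

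The response to Pi differed between groups, by tests of the difference itself, in 7 cases. With SynCom against without, the difference was -1.6 for SEN1 in Col-0 (adjusted p = 0.0234), and in phf1 it was -1.73 for SEN1 (adjusted p = 0.0152), -0.53 for PPH (adjusted p = 0.0434), -0.81 for NYC1 (adjusted p = 0.029) and -0.73 for PAO (adjusted p = 0.0173). With SynCom, phr1phl1 differed from Col-0 by 2.06 for SEN1 (adjusted p = 0.00204) and by 0.76 for NYC1 (adjusted p = 0.0318).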

How the results depend on the processing

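Over single members 4120 recomputed values kept their side of the threshold, 156 were no longer called and 68 became called. No value that was called in either fit changed direction. Direction was not compared where neither fit made a call. The fits of A alone and of B alone are not among these alternatives. There signs could differ, as given above for ORE1, NYC1, SEN1 and SAG13. Among 8 tested members, calls numbered 11 in the 6 Pi comparisons, 6 for SynCom, 5 for genotype, 4 for pre-treatment, 7 for the tests of differences between Pi responses and 37 in the 14 differences between experiments. Without the experiment term they numbered 7, 2, 0, 0 and 2 for the first 5. Leaving out 1 replicate gave 5 to 10 for Pi, 0 to 6 for SynCom, 1 to 5 for genotype, 0 to 5 for pre-treatment, 1 to 8 for the differences of Pi responses and 23 to 32 between experiments. Limma-voom gave 11 for SynCom and 10 for genotype, using only the compared libraries gave 9 for genotype, and leaving out the 6 libraries in doubt gave 2 for pre-treatment. With the replicate block, calls numbered 10, 6, 5, 3 and 7. The correlation was over 0.1 in 22.3% of pairs of groups, a share that has no reference here. Replicate numbers were not taken as pairs. Scaling moved the median of all genes by at most 0.04. For the alternatives the share of all genes called is not given, so these counts have no reference. The cause of the changes in calls was not tested beyond what each alternative leaves out. SAG12 did not pass the filter on low counts, and no test of it is given.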
